A study of Mus musculus with 19 samples.

Results

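SOX3 occupancy inside genes, away from their start sites, was described through 2066 reproducible CpG-poor intronic peaks of mouse testis. A peak of SOX3 ChIP-seq replicate 1 was a member when a single replicate 2 peak covered at least 50% of its length, when it lay more than 2 kb from every curated RefSeq start site, when its midpoint fell in an intron, and when the ratio of observed to expected CpG dinucleotides in the 500 bp around that midpoint was below 0.6. The 2066 members were 3.54% of the 58351 peaks of replicate 1 and 14.1% of the 14638 that were found in replicate 2. Together they covered 2.07 Mb. Members were thus chosen by the overlap of lists that the authors had thresholded on a score, and by position and CpG ratio, so these values are given as a description.

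Both ChIP-seq libraries came from mouse testis at postnatal day 7 (P7), immunoprecipitated with a pair of antibodies against SOX3, and the labels give them no genotype or strain. Per the study's methods, a transcription factor ChIP used unsorted seminiferous tubules of 3 mice freed of the tunica albuginea. They call the 2 replicates independent biological replicates. Germ cells, Sertoli cells and peritubular cells therefore contributed to the same chromatin, and occupancy in fewer cells cannot be told apart from weaker occupancy per cell. A second pair of SOX3 libraries was made by ChIP-nexus, in which an exonuclease trims the precipitated DNA toward the protein, from the same kind of tissue. No genotype or treatment was compared here, and peak lists carry no expression, so the cell types of the tissue could not be checked from markers. With 2 libraries, no test across samples was possible, and differences between sets of peaks are descriptions.

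SOX3 is a member of the SOX family, whose HMG box binds a short A/T-rich word of the form ACAAAG or ACAATG in the minor groove and bends the DNA. In the postnatal testis it marks undifferentiated spermatogonia, the germ cells that maintain and feed spermatogenesis. Introns hold many distal regulatory elements, which can act on the host gene or on another gene, and most of them lack the CpG islands that are typical of promoters.

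The 4 members with the best mean rank of the score over both replicates are shown by the 200 bases around their midpoints, as the strongest examples of the class. Sequences are from GRCm38 (mm10), on the plus strand and 5′ to 3′, and capitals mark the SOX core ACAATG or ACAAAG on either strand.
D230017M19Rik chr1:72255532-72255731: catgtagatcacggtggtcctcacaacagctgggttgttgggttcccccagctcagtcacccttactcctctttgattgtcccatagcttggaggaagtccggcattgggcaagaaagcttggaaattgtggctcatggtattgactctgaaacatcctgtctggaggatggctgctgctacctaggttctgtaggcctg
Rab11fip4 chr11:79660939-79661138: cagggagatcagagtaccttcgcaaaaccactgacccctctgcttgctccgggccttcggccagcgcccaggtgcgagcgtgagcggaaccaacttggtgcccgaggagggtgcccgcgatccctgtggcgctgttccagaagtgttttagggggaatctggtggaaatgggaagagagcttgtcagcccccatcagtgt
Maml3 chr3:51789019-51789218: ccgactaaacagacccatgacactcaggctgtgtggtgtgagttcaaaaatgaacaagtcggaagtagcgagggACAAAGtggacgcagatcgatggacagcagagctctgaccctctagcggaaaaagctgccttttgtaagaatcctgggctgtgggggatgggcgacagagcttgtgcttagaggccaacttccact
Gm36897 chr6:136469382-136469581: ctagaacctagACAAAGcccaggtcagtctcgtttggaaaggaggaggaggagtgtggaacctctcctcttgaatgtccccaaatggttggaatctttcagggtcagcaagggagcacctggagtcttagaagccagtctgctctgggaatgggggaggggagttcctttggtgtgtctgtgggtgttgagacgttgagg
A SOX core lay in the windows of Maml3 and Gm36897 and in neither window of the 2 strongest members, those in D230017M19Rik and Rab11fip4. The extended form of the core, AACAATG or AACAAAG, was found in the central 100 bases of 86 members. The 4 with the highest replicate 1 score are shown by those 100 bases, with the extended core in capitals.
Dsp chr13:38170841-38170940: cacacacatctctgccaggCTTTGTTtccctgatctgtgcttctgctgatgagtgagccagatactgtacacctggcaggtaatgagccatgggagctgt
Hhat chr1:192745785-192745884: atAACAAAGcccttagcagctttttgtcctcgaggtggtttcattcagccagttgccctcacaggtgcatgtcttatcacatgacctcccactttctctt
Dnmbp chr19:43930041-43930140: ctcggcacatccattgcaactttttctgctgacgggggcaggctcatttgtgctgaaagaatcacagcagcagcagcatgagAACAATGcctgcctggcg
Rora chr9:69299405-69299504: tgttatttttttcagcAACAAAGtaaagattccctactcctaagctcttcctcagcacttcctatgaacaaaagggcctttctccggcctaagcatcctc
In Dsp the word was read on the minus strand and in the other 3 members on the plus strand. The word lay at a different place in each window, from near the 5′ end in Hhat to near the 3′ end in Dnmbp.

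Scores are the q score of the deposited lists, which is 10 times the negative log10 of the false discovery rate given by the authors' caller. The log2 ratio is the enrichment of the ChIP over its control in the same lists. The strongest member by far lay in the first of 3 introns of D230017M19Rik, a long non-coding RNA gene, at chr1:72254021-72257243. Its q score was 1198 in replicate 1 and 678 in replicate 2, and its log2 ratio was 5.73 and 4.44. It was rank 22 of the whole replicate 1 list and the one member among the first 1000. This peak covered Gm25939, a predicted small nuclear RNA (snRNA) gene at 72255008 to 72255198 with its own start site, which the curated set does not hold. Predicted start sites lay within 2 kb of 220 members (10.6%), against 7.64% of the peaks of the same kind that were not found in replicate 2. The share was 6.58% over all replicate 1 peaks. It was higher than in the members in the other reproducible sets, with 14.1% of CpG-poor intergenic peaks and 40.5% of CpG-rich intronic peaks.

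The second member by mean rank lay in intron 3 of Rab11fip4, which encodes a Rab11-binding protein of recycling endosomes (chr11:79659937-79662140), with q scores of 277 and 163. The third lay in intron 2 of Maml3, a Mastermind-like coactivator of Notch signalling (chr3:51788605-51789632), with q scores of 232 and 121, and was wholly covered by the replicate 2 peak. It lay 316 kb from the start of its host and inside an annotated VISTA enhancer, an element tested for enhancer activity in transgenic mouse embryos. The fourth, in the single intron of the non-coding RNA gene Gm36897 (chr6:136467171-136471793), had q scores of 214 and 134.

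Among the other 8 of the best 12, Axl, a receptor tyrosine kinase, carried a member in intron 4 (chr7:25780341-25784268) with q scores of 205 and 133. Arid1b, a subunit of the BAF chromatin remodelling complex, carried one in intron 4 (chr17:5189338-5190581) with q scores of 247 and 96.2. Its window had a GC content of 66% and a CpG ratio of 0.569, near the limit of the rule. Slmap, Kif26a and Sema4b held members with q scores of 173, 173 and 141 in replicate 1 and of 126, 118 and 99.3 in replicate 2. Kif26a encodes a kinesin-family protein, and Sema4b encodes a semaphorin. In Ubtf, the upstream binding factor of RNA polymerase I, the member was 9628 bp wide, so it reached into the exons on both sides of the 0.381 kb intron that held its midpoint. The scores there were 191 and 98.9. Cnih2, a cornichon protein of AMPA receptor traffic, had scores of 204 and 88.1, and Tsks, a substrate of testis-specific serine kinases, had scores of 230 and 83.4. In all 12 the replicate 1 score was the higher one. A curated exon was touched by 429 of all members (20.8%), so an intronic midpoint did not mean a wholly intronic peak.

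Most members scored close to the threshold of 30 that the authors set. The median q score was 45.0 in replicate 1, with quartiles of 36.4 and 61.6, and 40.7 in replicate 2, with quartiles of 34.5 and 50.2. In replicate 1, 737 members (35.7%) scored at most 40 and 127 (6.15%) scored above 100. In replicate 2, 997 (48.3%) scored at most 40 and 17 (0.823%) above 100. Only 143 members (6.92%) scored above 60 in both lists and 12 above 100 in both. The replicate 1 score was the higher of the pair in 1334 members (64.6%). Over the 2066 pairs the Spearman correlation of the scores was 0.37 and that of the log2 ratios 0.18. These points share 2 libraries and are not independent, and the score followed peak width closely (a Spearman correlation of 0.78 in replicate 1).

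Peaks of high replicate 1 score were found more often in replicate 2. Of all 20719 replicate 1 peaks that met the position and CpG rule, 2066 were found in replicate 2 (9.97%), against 25.1% of all replicate 1 peaks and 11.9% of those outside promoters. In the lowest decile by score, 115 of 2072 were found (5.55%), and in the highest decile 592 of 2072 (28.6%). The share did not rise at every step, since the second decile had 4.49% and the fourth 5.50%, and it passed 10% from the eighth decile on. The 18653 peaks without a match had a median score of 37.1 and a median width of 594 bp, against 843 bp for the members. Reproducible CpG-poor intergenic peaks (n = 2004) had scores close to those of the members, with medians of 47.9 and 42.4. The 121 reproducible intronic peaks that were CpG-rich had a median of 83.9 in replicate 1 and 48.0 in replicate 2. The median log2 ratios of the members were 2.72 and 2.54, and that of the unmatched peaks was 2.80, slightly above the members.

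Near the overlap limit, the members in Lrrc74b and Gm33508 were covered over exactly 50% of their length, with q scores of 74.1 and 59.7 in replicate 1. Just outside lay peaks in Proser2 (49.9% covered, q score 59.1) and Pcsk7 (49.8%, q score 108.8). At the distance limit, members in Lrrc8a and Klhdc2 lay 2007 and 2017 bp from a start site, with q scores of 33.7 and 43.3. Peaks in Per1 and Mcrs1 at 2000 and 1991 bp, with q scores of 45.5 and 95.8, were outside. At the CpG limit, the members in Nr5a2 and Cd80 had ratios of 0.599 (q scores 40.2 and 38.9), and peaks in Meis1 and Mast4 at 0.604 and 0.606 (q scores 31.4 and 83.9) were outside. The CpG criterion took away few peaks, since it removed 121 of 2187. In the genome, 99.5% of the 500 bp tiles of intron beyond 2 kb from a start site also had a ratio below 0.6.

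**Figure D1:**
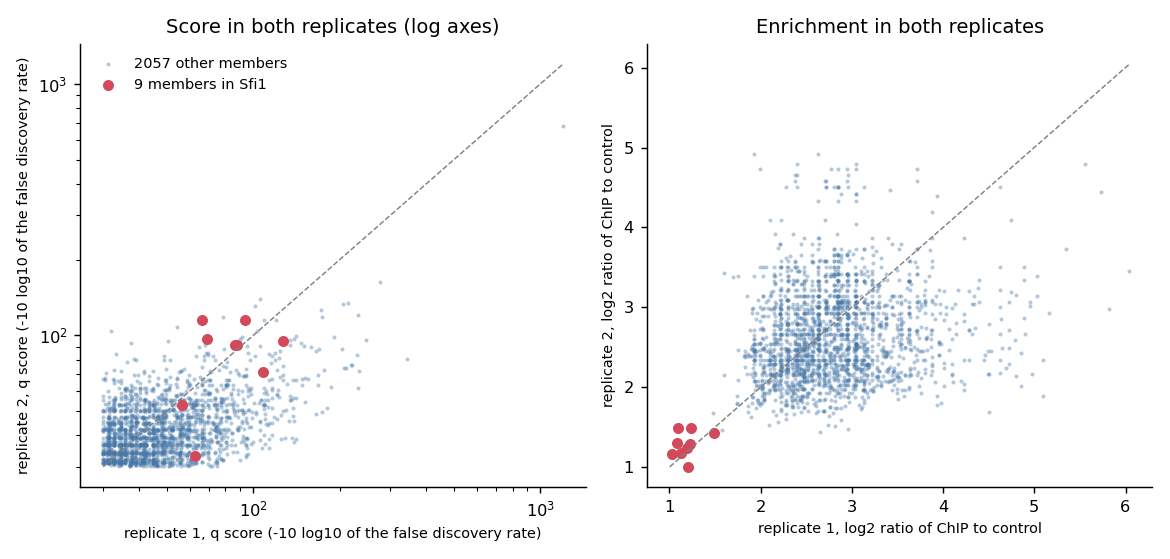
Scores and enrichment of the 2066 members in both replicates. Each point is one member, with the q score on log axes on the left and the log2 ratio on the right, and the dashed line marks equal values. The 9 members in Sfi1 have log2 ratios of 1.03 to 1.49 and 1.01 to 1.49, below 1.5 in both replicates, although their q scores in replicate 1 run from 56.3 to 126.

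One gene stood apart in these values. Sfi1, which encodes a centrin-binding protein of centrosomes, lies at chr11:3131850-3200652 and held 9 members within 68.8 kb. Their q scores in replicate 1 ran from 56.3 to 126 with a median of 86.0, and those in replicate 2 from 33.1 to 115 with a median of 91.5. Their log2 ratios were 1.03 to 1.49 in replicate 1 and 1.01 to 1.49 in replicate 2. These were the 9 members of the 2066 with a log2 ratio below 1.5 in both replicates, as the plot of scores and enrichment shows. Repeated 50-base words, that is words of the length of a read that occur more than once in the genome, were present in 6 of the 9, up to 22.7% of a peak and up to 174 copies of a word. The part of repeated words in these values was not tested.

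Repeat content was read from the soft-masked bases of the genome sequence. The median member was 11.7% masked, with quartiles of 5.74% and 20.3%. No masked base was found in 146 members, and 40 members (1.94%) were masked over more than 50% of their length. Unmatched peaks of the same kind had nearly the same median, 11.5%, but 5.41% of them were over 50% masked. Intergenic CpG-poor peaks had a median of 14.1%, and CpG-rich intronic peaks one of 8.99%. The sequence around the members was more masked than the members. In windows of the same width 1 kb beyond each edge the mean share was 23.1%, against 14.7% in the peaks, and 71.7% of members were less masked than the mean of their 2 flanks.

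**Figure D2:**
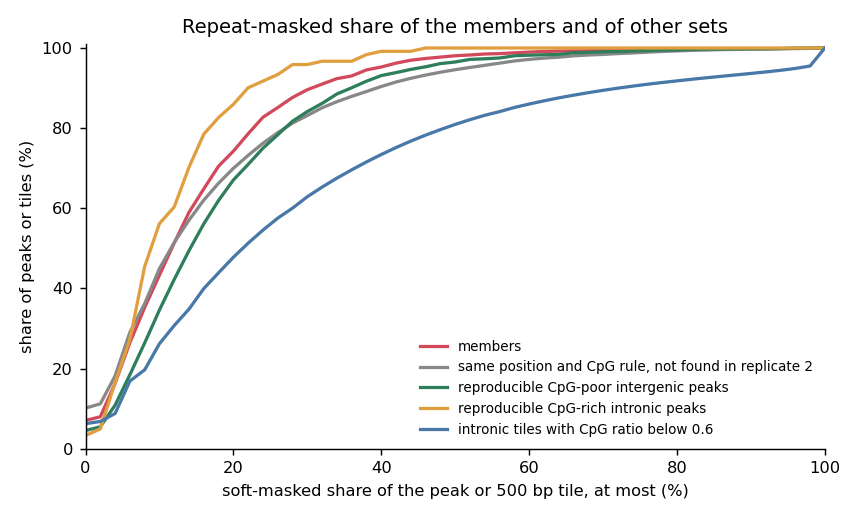
Cumulative share of peaks or tiles against their soft-masked share. Lines are the members, 3 other sets of replicate 1 peaks, and 500 bp tiles of intron beyond 2 kb from a start site. The tiles hold no exon base and have a CpG ratio below 0.6. Peaks are measured over their whole width, and 20.8% of members touch an exon. The members and the unmatched peaks run together up to medians of 11.7% and 11.5%, and both lie well above the line of the tiles, whose median is 21.4%.

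The intron background was lower in GC and in CpG ratio and richer in repeats. Its 500 bp tiles with a CpG ratio below 0.6 had a median ratio of 0.161, against 0.235 for the members and 0.216 for the unmatched peaks. Members were thus CpG-poor by the limit of the rule and not by comparison with the intron background. Introns more than 2 kb from a start site spanned 919 Mb, with 29.0% of bases masked and a GC content of 42.2%. In the 500 bp around the midpoint the members had a median GC content of 52% and a median masked share of 9.4%. Of the CpG-poor intron tiles, 5.35% had a GC content at or above that member median, and 24.3% were masked at or below it. GC content was also high in the unmatched peaks (median 50.6%) and the intergenic ones (52%), so it was shared by peaks of the list in general. The masked share barely followed the score, with a Spearman correlation of 0.06 and medians of 10.5% and 12.1% in the lowest and highest quartile of members by score.

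Copy number was counted at the read length of 50 bases, since the study placed reads that fit several loci at random. At least one repeated 50-base word lay in 356 members (17.2%), against 17.7% of unmatched peaks and 26.05% of intergenic ones. Among the 143 members that scored above 60 in both replicates the share was 38.5%. The score followed peak width, as given above, and a wider peak holds more words. Only 49 members (2.37%) had more than 10% of their words repeated, and 2 had 50% or more. These were in Erdr1 on chromosome Y (89.5% of words, q scores 44.9 and 30.8) and in 3632454L22Rik on chromosome X (57.7%, with a q score just above the threshold of 30 in replicate 1 and of 47.3 in replicate 2). The most masked member lay in intron 1 of Smo, the signal transducer of the Hedgehog pathway, at chr6:29748268-29749134. It was 99.5% masked, yet 8.07% of its words were repeated, and it scored 42.1 in replicate 1, with a log2 ratio of 1.48, and 37.1 in replicate 2, with a ratio of 1.68. Members in Ddr1, a collagen receptor kinase, and Mepe, a matrix phosphoglycoprotein, were 98.8% and 93.4% masked, and 42.3% and 45.6% of their words were repeated. The member in Iqgap2, a scaffold protein of actin, was 96.3% masked, with 3.37% of its words repeated. The D230017M19Rik member was 10.6% masked, but held words found up to 616 times. These extreme members were chosen after their values were seen.

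The members lay in 1581 host genes, which is 7.11% of the 22231 RefSeq genes with an intron. One host was found for 2035 members and 2 hosts for 29. The other 2 members lay in the protocadherin gamma cluster on chromosome 18, where introns of 25 overlapping genes held each midpoint. Of the hosts, 1221 held 1 member, 250 held 2 and 110 held 3 or more. Another member lay within 10 kb of 358 members (17.3%). Hosts were long genes, with a median length of 53.5 kb against 18.003 kb for all genes with an intron. The share of genes with a member rose with length, from 1.03% of genes up to 10 kb to 19.7% of those over 100 kb. Genes with only unmatched peaks (n = 5782) had a median length of 33.0 kb. Protein-coding genes were 94.9% of hosts and 84.8% of all genes with an intron.

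Within their hosts, members lay a median of 25.2 kb from the start of the longest transcript, in introns with a median length of 13.2 kb, counting the 2035 members with 1 host. The first intron held 632 of these (31.1%) and the second 16.8%. In the whole genome, first introns made up 24.5% of intronic sequence beyond 2 kb from a start site. The distance to the nearest start site of any gene was at most 10 kb for 730 members (35.3%) and over 100 kb for 93. The host's own promoter was bound in both replicates, with a peak within 2 kb of a start site, at 1268 of the 1581 hosts (80.2%). This was true of 57.6% of all genes with an intron and of 73.3% of genes with only unmatched peaks. In each of the 4 length classes hosts had the larger share (70.7% against 48.4% up to 10 kb and 79.7% against 63.6% over 100 kb).

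**Figure D3:**
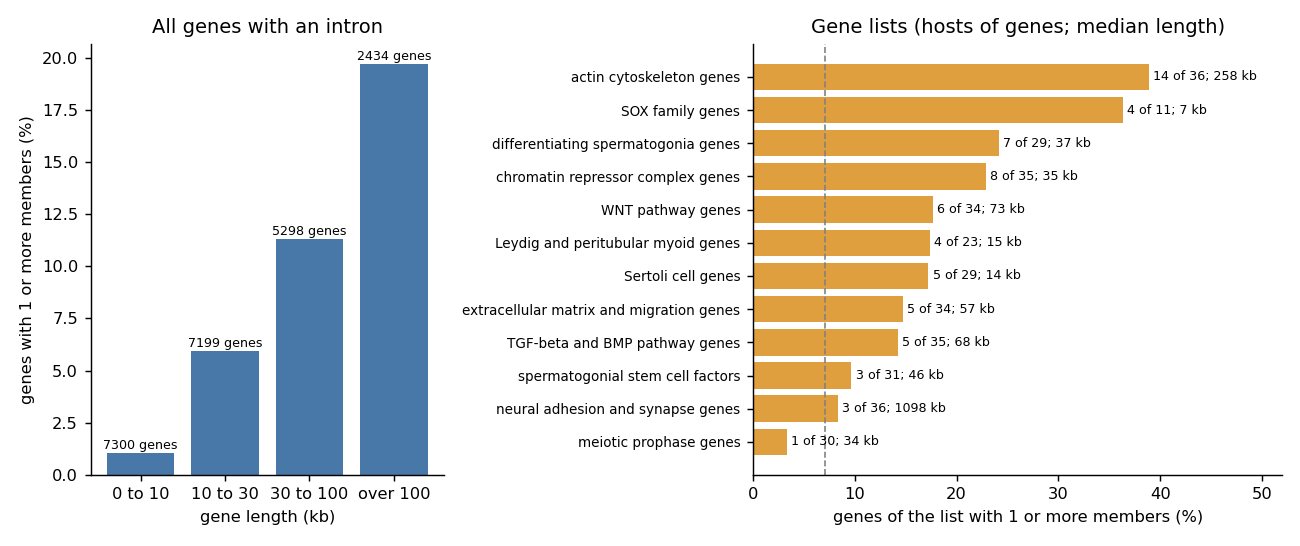
Share of genes that hold at least one member, by gene length (left) and by gene list (right). Bars give the percentage of genes, and labels give the number of genes or of hosts and the median gene length. The dashed line marks the 7.11% of all genes with an intron, which is not matched for gene length. Longer genes held members more often, and the lists of actin cytoskeleton genes (14 of 36) and SOX genes (4 of 11) had the largest shares. The lists were drawn up with earlier results of these data known.

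The 5 genes with the most members were Sfi1 and Ssh1 with 9 each, Nav2 and Trak1 with 8 each, and Ctif with 7, a number it shared with Dlgap1 and Septin9. Ssh1, a slingshot phosphatase that acts on the actin-severing protein cofilin, spans 56.7 kb (chr5:113937094-113993790) and held its 9 members in 6 of 13 introns. Their q scores were 31.8 to 87.5 in replicate 1 and 35.2 to 53.3 in replicate 2. Intron 2 held 4 of them. Nav2, a neuron navigator of the cytoskeleton, spans 651 kb, and its 8 members scored 31.9 to 82.5 and 34.03 to 53.5. Trak1, an adaptor that links mitochondria to kinesin, spans 177 kb. Its members scored 34.6 to 148 and 30.1 to 66.9, with the strongest in intron 2 (chr9:121369228-121372456). Ctif, a translation initiation factor of newly made mRNAs, spans 266 kb, and its 7 members scored 38.9 to 102 and 40.7 to 82.9. Its strongest member overlapped a pair of VISTA enhancers. Members per 100 kb were 15.9 in Ssh1, 13.1 in Sfi1, 4.51 in Trak1, 2.63 in Ctif and 1.23 in Nav2.

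Gene lists for testis cell types and pathways were then read against the 7.11% of all genes, with gene length beside them. The 7.11% is not matched for length. By length, the share of hosts was 1.03% up to 10 kb and 5.93% from 10 to 30 kb. It was 11.3% from 30 to 100 kb and 19.7% over 100 kb. In the list named for spermatogonial stem cell factors, 3 of 31 genes were hosts (9.68%, median length 46.0 kb), with 6 members. Most of these lay in Tex14, which is not a factor of stem cells alone. Tex14, which builds the intercellular bridges of germ cells, held 4 members in intron 2, with q scores of 76.9, 50.9, 42.1 and 30.6 in replicate 1 and of 47.1, 43.0, 42.1 and 70.7 in replicate 2. Fgfr1, a receptor for fibroblast growth factors, held one with 82.5 and 53.2, and Glis3, a zinc finger factor of germ cell precursors, one with 52.2 and 30.5. The Tex14 member with the lowest score of the 4 in replicate 1 had the highest in replicate 2.

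The list named for differentiating spermatogonia included 7 hosts of 29 (24.1%, median length 37.2 kb). Rara, the retinoic acid receptor alpha, held 3 members. That at chr11:98950237-98953305 scored 220 and 76.3, that at chr11:98953836-98956286 scored 138 and 96.5, and that in intron 6 scored 66.3 and 48.3. The first and second were neighbours in intron 2. Dnmt3a, a de novo DNA methyltransferase, held members with scores of 91.2 and 60.2 in intron 4 and of 38.9 and 43.8 in intron 1. Dmrt1, a DM-domain factor of germ and Sertoli cells, held one in intron 2 with 56.4 and 48.2. The cyclin genes Ccnd2 and Ccnd3 and the kinase gene Cdk6 held one each, of which Ccnd3 was the strongest with 70.9 and 66.6. These are general cell cycle genes and do not mark differentiating spermatogonia. The paper's immunofluorescence found CCND2 in early undifferentiated spermatogonia and not in differentiating ones. Dmrt1 and Smad3 also stood in other lists, so the share describes the list as drawn up and not genes particular to these cells. Smad3, a transducer of TGF-beta signals, scored 34.1 and 36.8. Meiotic prophase genes had 1 host of 30 (3.33%, 33.6 kb), namely Rec114, a factor of meiotic break formation, with 42.2 and 30.1.

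Genes of the somatic testis were also hosts. Of 29 Sertoli cell genes, 5 held a member (17.2%, median length 14.4 kb). Amhr2, the receptor of anti-Müllerian hormone, scored 71.6 and 63.2 in a peak that was 48.996% masked. Fshr, the receptor of follicle-stimulating hormone, scored 71.6 and 30.1, Cldn11, a claudin of the blood-testis barrier, 41.7 and 36.8, and Gata4, a GATA factor of gonadal somatic cells, 34.6 and 35.96. Dmrt1 was the fifth and stood in both lists. Of 23 genes of Leydig and peritubular myoid cells, 4 were hosts (17.4%, 14.8 kb). Ptch1, the Hedgehog receptor, held members with 62.5 and 33.6 and with 60.7 and 54.1. Cald1 and Tpm1, actin-binding proteins of contractile cells, scored 62.5 and 39.5 and 48.3 and 33.9, and Pdgfra, a receptor of platelet-derived growth factor, 47.8 and 39.5.

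SOX genes are short and often have no intron, and 4 of the 11 with an intron were hosts (36.4%, median length 7.03 kb). The hosts were mostly the long ones, with lengths of 568 kb for Sox6, 381 kb for Sox5, 41.9 kb for Sox13 and 9.58 kb for Sox10. Sox6 scored 63.6 and 42.0 in intron 5, Sox5 34.6 and 31.2 in intron 3, and Sox10 34.6 and 33.9 in intron 2. Sox13 held a pair of members in intron 1, with 48.5 and 46.9 and with 35.7 and 33.9. These 4 genes belong to the SoxD and SoxE groups, and only the Sox6 member and the stronger Sox13 member passed a score of 40 in both replicates. Of 34 WNT pathway genes, 6 were hosts (17.6%, 73.5 kb). Wnt6 scored 66.6 and 36.7, Axin2, a feedback inhibitor of the pathway, 35.7 and 61.2, and Tcf7l1, a transcriptional effector, 54.2 and 47.4. The receptor genes Ror2 and Ryk and the ligand gene Wnt5b scored at most 51.8 in replicate 1. Of 35 TGF-beta and BMP pathway genes, 5 were hosts (14.3%, 68.5 kb). Smad7, an inhibitory SMAD, held members with 82.2 and 41.9 and with 59.1 and 47.4, and Ski, a corepressor of SMADs, held members with 63.2 and 54.4 and with 54.4 and 32.1. Smad6 and Tgfb3 scored under 40 in both replicates.

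Chromatin repressor genes had 8 hosts of 35 (22.9%, median length 35.3 kb). Hdac7, a class II histone deacetylase, held members with 77.4 and 40.7 and with 55.5 and 58.4. Hdac1 scored 69.9 and 47.5, Phc2, a subunit of Polycomb repressive complex 1, 80.5 and 45.6, and Mta1, a subunit of the NuRD complex, 60.7 and 47.5 for its stronger member. Chd4, Ezh1 and Hdac4 scored under 40 in both replicates. Of 34 genes of the extracellular matrix and migration, 5 were hosts (14.7%, 56.9 kb). Col18a1, a basement membrane collagen, held 4 members, all in intron 2, of which 3 scored above 60 in both replicates. Mmp2, a matrix metalloproteinase, scored 72.6 and 82.6.

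The list of actin cytoskeleton genes had the most hosts, 14 of 36 (38.9%) with 35 members, and also long genes, with a median of 258 kb. The lists were drawn up with earlier results of these data known, so this rank is a description only. Myh9, the heavy chain of non-muscle myosin, and Tns1, a tensin of focal adhesions, held 6 members each. The strongest member of Myh9, in intron 14, scored 137 and 39.2, and that of Tns1, in intron 18, 77.4 and 39.5. Trio, a guanine nucleotide exchange factor, held members with 121 and 46.3, 85.9 and 50.7, and 58.9 and 39.5. Tns3 held 3, the strongest with 99.3 and 47.1, and Arhgef3, another exchange factor, held 4. Its member in intron 4 scored 38.3 in replicate 1 and 80.6 in replicate 2. Neural adhesion and synapse genes were longer still, with a median of 1098 kb, yet 3 of 36 were hosts (8.33%). Dlgap1, a scaffold of synapses, accounted for 7 of their 11 members, with scores of 44.9 to 141 in replicate 1 and of 36.5 to 97.1 in replicate 2. The 3 members in Auts2 and the one in Ntm scored under 45 in both replicates. The order of the lists by share did not follow their order by length.

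**Figure D4:**
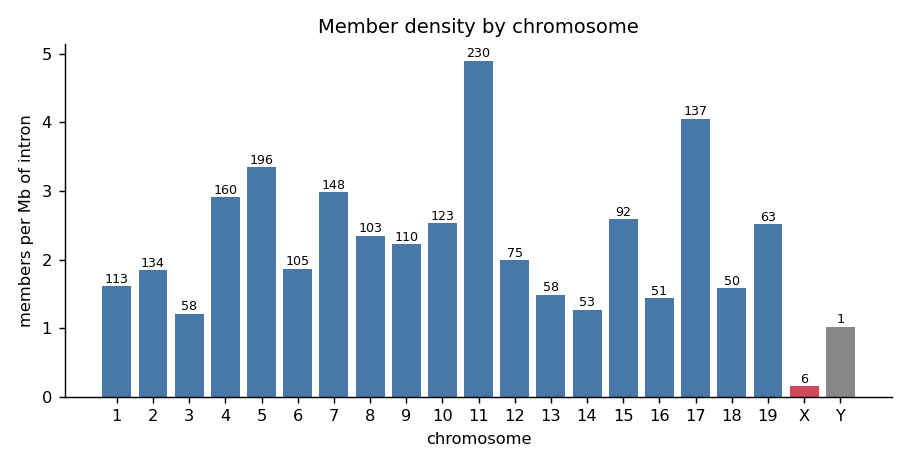
Members per Mb of intronic sequence beyond 2 kb from a start site, by chromosome, with the number of members above each bar. Chromosome X has 6 members, or 0.152 per Mb, below every autosome, and chromosome 11 has 230, or 4.90 per Mb.

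By chromosome, density was counted per Mb of intron. Autosomes held 2059 members, 2.34 per Mb, and ranged from 1.21 per Mb on chromosome 3 to 4.90 on chromosome 11. Chromosome X, present in a single copy in male tissue, held 6 members, or 0.152 per Mb, which was 0.065 of the autosomal density. Chromosome Y held 1, the repeated Erdr1 member described above. Replicate 1 peaks that met the position and CpG rule, found in replicate 2 or not, were also sparse on X, with 54 in all. Of these 54, 11.1% were found in replicate 2, close to the 9.97% of the genome. The strongest X member lay in 2010308F09Rik (chrX:13241381-13243838), with q scores of 168 and 69.8, within a VISTA enhancer. The next lay in Septin6, a septin of the cytoskeleton (129 and 39.2), and Syp, the synaptic vesicle protein synaptophysin (91.0 and 50.3).

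**Figure D5:**
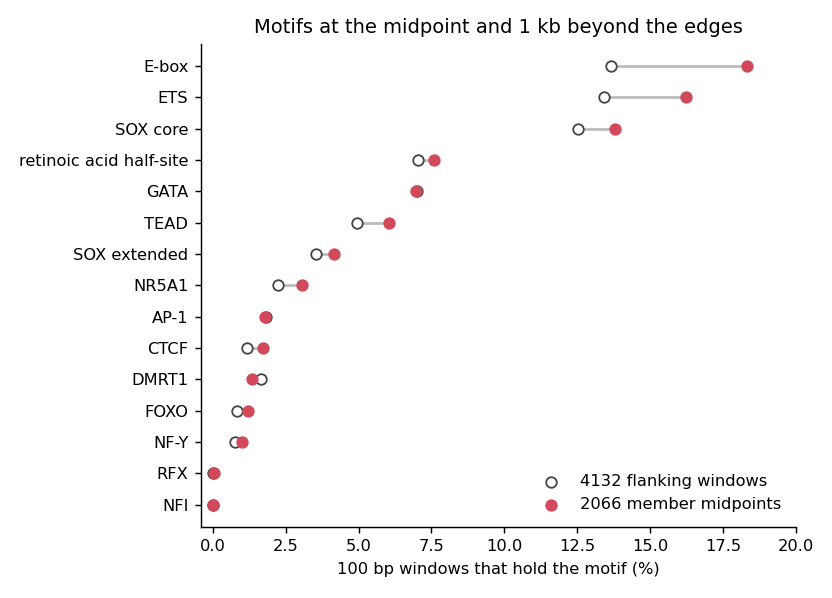
Share of 100 bp windows that hold each of 15 motifs, in the members. Filled points are the 2066 windows at member midpoints and open points the 4132 windows 1 kb beyond the peak edges. The E-box differs most (18.3% against 13.6%), while the SOX core differs by 1.26 percentage points.

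Motifs were searched on both strands as plain words at the midpoint and in the flanks. The SOX core, ACAATG or ACAAAG, occurred in the central 100 bp of 285 members (13.8%) and in 12.5% of the 4132 flanking windows, a difference of 1.26 percentage points. The extended core, which contains the core, was found in 4.16% and 3.53%. In all 58351 replicate 1 peaks the core was rarer at midpoints than in flanks (10.6% against 12.6%), and in the unmatched peaks of the same kind the shares were 11.9% and 12.3%. Intergenic CpG-poor peaks had 14.2% and 12.4%, much as the members, and CpG-rich intronic peaks 6.61% and 15.3%. Over 200 bp the extended core was found in 8.18% of members and 6.32% of flanks, and per kb of whole peak it was 1.28 times as frequent as in flanks. Over its full width a peak had more room, and 693 members (33.5%) held the extended core somewhere. It occurred in 9.36% of the 32851 RefSeq promoter windows, which are longer than 200 bp and are given for scale only. With AACAAT in place of the core the direction turned, with 3.97% at midpoints and 4.50% in flanks.

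In the central 100 bp the E-box and the ETS core differed by more percentage points than the SOX core, as the plot of motif shares shows, and the other words by fewer. This order held for 100 bp only. In 200 bp the SOX core differed by 1.79 points. The NR5A1 word differed by 2.49, the TEAD word by 2.35 and the retinoic acid half-site by 1.91. The E-box, CAGCTG or CAGGTG, which basic helix-loop-helix factors bind, occurred at 18.3% of midpoints and in 13.6% of flanks. The ETS core AGGAAG occurred at 16.2% and 13.4%, the TEAD word GGAATG at 6.05% and 4.96%, and AAGGTCA, the site of the orphan nuclear receptor NR5A1, at 3.05% and 2.25%. In all replicate 1 peaks these shares at the midpoint were 16.1%, 13.96%, 5.20% and 2.03%. The GATA words AGATAA and TGATAA (6.97% and 6.99%), the AP-1 word TGACTCA (1.79% and 1.82%) and TACANTGT of DMRT1 (1.36% and 1.67%) were not more frequent in the central 100 bp. In 200 bp the AP-1 word was found in 4.26% of members and 3.15% of flanks and the GATA words in 14.6% and 14.1%, so their direction turned, while DMRT1 stayed lower (2.86% and 3.51%). The CTCF motif (1.74% and 1.19%), the FOXO word TGTTTAC (1.21% and 0.823%), NF-Y (CCAATCA, 1.02% and 0.774%) and the retinoic acid half-site AGGTCA (7.60% and 7.04%), which overlaps AAGGTCA, were slightly more frequent. The RFX palindrome was found at 1 midpoint, and the NFI palindrome at none. Member sequence had 51.9% GC and flanks 48.9%, and the part of base composition in these differences was not tested.

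All 8-base words were then counted in the central 200 bp, and words were picked after their values were seen. Of the 20 words with the highest ratio of midpoint to flank share, 15 contained a CpG. The first was AGGGGGCG, in 33 members (1.60%) and 0.242% of flanks, a word that falls within the longer sequence bound by CTCF. It was also frequent over all replicate 1 peaks (1.93% against 0.360%). The word CAAGGTCA, the extended half-site of NR5A1 and of the estrogen-related receptors, has no CpG. It occurred in 85 members (4.11%) and 1.55% of flanks, against 2.18% and 1.64% in unmatched peaks, 3.09% and 1.40% in intergenic peaks and 1.91% and 1.61% in all replicate 1 peaks. Because this word also occurs in repeats, it was counted in unmasked bases alone. There were 0.194 words per kb at the members' midpoints and 0.0816 per kb in flanks, a ratio of 2.38, and the ratio was 1.30 in unmatched peaks and 2.38 in intergenic peaks. The SOX extended word had a ratio of 1.40 in the same count. Of the 37 members with CAAGGTCA in the central 100 bases, 29 had it outside masked bases, and 2 of the 3 with the highest replicate 1 score are shown, with the word in capitals.
Gipc1 chr8:83662404-83662503: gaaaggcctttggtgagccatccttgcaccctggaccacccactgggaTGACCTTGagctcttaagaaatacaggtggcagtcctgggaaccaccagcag
Mbnl2 chr14:120337939-120338038: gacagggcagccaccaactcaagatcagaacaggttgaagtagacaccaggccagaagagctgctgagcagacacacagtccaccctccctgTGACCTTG
The first lay in Gipc1, a PDZ-domain adaptor of membrane traffic (q scores 94.8 and 44.7), and the second in Mbnl2, a splicing regulator (94.7 and 90.8). In both windows the word was read on the minus strand.

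ChIP-nexus, which the rule did not use, overlapped few members. The 110 mouse regions of the replicate 1 list touched 2 members by 1 bp or more, and the 18 of replicate 2 touched none. All 58351 ChIP-seq peaks of replicate 1 included 50 that were touched by a replicate 1 region. The study's read totals give both ChIP-nexus libraries far fewer unique reads than either ChIP-seq library, so a region that is missing from these lists does not show that SOX3 was absent. The first was the D230017M19Rik member, where a region with a fold enrichment of 7.35 lay at 72254757 to 72255369, over the predicted snRNA gene. The second was in the first intron of Capg, an actin filament capping protein, at chr6:72552288-72553417, with ChIP-seq q scores of 166 and 48.8. The ChIP-nexus region there had a fold enrichment of 5.66, and its summit lay 65 bp from the midpoint of the member. No ChIP-nexus region of either replicate touched any of the 18653 unmatched peaks, which were narrower than the members and of lower score. Replicate 1 regions touched 2 of the 2004 CpG-poor intergenic peaks and 1 of the 121 CpG-rich intronic peaks. With so few regions, these counts do not set the members apart from the other peaks.

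Annotated regulatory elements, which the rule did not use, were also compared with the members. Of the 2245 regulatory features taken from RefSeq, at least one overlapped 18 members (0.871%), and 17 members (0.823%) overlapped an enhancer. The share with an enhancer was 0.477% for unmatched peaks and 1.697% for intergenic CpG-poor peaks. The share over all replicate 1 peaks was not computed. A wider peak can meet an element more easily. Median widths were 843 bp for members, 594 bp for unmatched peaks and 887 bp for intergenic ones. The part of width in these shares was not tested. Besides those in Maml3, Ctif and 2010308F09Rik, enhancers lay under members in Bcar1, an adaptor of focal adhesions (q scores 141 and 56.3), in Ugdh, a dehydrogenase of UDP-glucose (141 and 38.7), in Iffo2 (108.8 and 50.8), in Myh9 (88.3 and 47.5) and in Septin9, a cytoskeletal septin (80.4 and 63.6). The other member overlapped a promoter fragment and a cis-regulatory region of Pax2, which the annotation does not class as enhancers, with q scores of 31.1 and 31.5. A small RNA gene lay under 3 members, a count that was not made for all replicate 1 peaks or for the other sets. Apart from Gm25939 these were Gm22265, an snRNA gene in Hhat (q scores 124 and 68.2), and Gm23751, in Chd4 (31.1 and 32.1). The Hhat member is also the second of the windows with an extended SOX core above.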

How the data were processed

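SOX3 ChIP-seq and ChIP-nexus peak lists of P7 mouse testis, 2 replicates each, were used, and the other samples of the series were not analysed here. The authors aligned single-end reads of 50 bases to mm10 with Novoalign, placing reads with several matches at random, removed duplicates with Picard and called peaks on each replicate. The submitters' processing notes also name MACS2 2.1.1 and bedtools, and the methods name USeq. Per the methods, peaks in mouse regions on a blacklist were taken out. Whether this was done for the lists used here, which include the Sfi1 members, was not checked.

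No header names the columns of the ChIP-seq lists, which were read from their values and the caller's layout. The authors' caller gave each peak a p score and a q score, 10 times the negative log10 of the p-value and of the false discovery rate, and the authors kept q scores above 30. The log2 ratio of ChIP over input was also computed by the authors' caller before the lists were deposited. The deposited ChIP-nexus lists give the fold enrichment, a ratio, and −log10 p and q. One region per ChIP-nexus list lay on a non-mouse sequence and was left out. Control and alignment of ChIP-nexus are not given in the sources used here. The lists hold no read counts, so no counting interval is given. The study's read totals per library show that ChIP-nexus was far shallower in unique reads than ChIP-seq. A peak that fell under the threshold in one replicate is absent from its list, which does not show that it was unbound.

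Peaks were annotated with curated RefSeq transcripts of GRCm38 (45756 transcripts, 26180 genes), using Python 3.11.15, numpy 2.4.6, pandas 2.3.3, numba 0.67.0, scipy 1.17.1 and matplotlib 3.10.9. Coordinates are 1-based. An exon of any transcript took precedence over an intron, a promoter counted as bound with a peak at most 2 kb from its start site, and masked bases are the lower-case bases of the genome sequence. Flanks were windows as wide as the peak (masking) or the motif window, starting 1 kb beyond each edge. The share of repeated 50-base words counted both strands. The code for overlap, start site distance, position, host intron, masking, CpG ratio and motif search was checked on a made-up chromosome. The combined rule that selects members was not part of that check.

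Values are medians, counts and shares, with no test over regions. The named members were the 12 with the best mean rank of the q score over both replicates, hosts in 12 gene lists, the 5 hosts with the most members, members that overlap a ChIP-nexus region, and peaks next to each threshold. Others were named after their values were seen, and 1 host gene of the lists is not reported here. Members and lists were chosen with earlier results of these data known. Alternatives changed the overlap, distance, CpG limit, score, annotation, replicate, motif and window.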

Additional observations from a re-analysis of the deposited data

How the results depend on the processing

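The number of members was 3622 with an overlap of 1 bp and 143 where both replicates had to score above 60 (the higher score), and 12316 to 20719 when one replicate was left out and no overlap was asked for. Host genes numbered 131 at the higher score and 5768 to 7363 with one replicate left out. The median replicate 1 score moved from 45.0 to 95.9 at the higher score, to 53.0 when replicate 2 peaks were matched to replicate 1, and to 37.9 without replicate 2. The median replicate 2 score moved from 40.7 to 39.2 with a 1 bp overlap and with the matching turned round, to 72.7 at the higher score and to 35.96 without replicate 1. The median masked share was 13.4% at the higher score, 10.5% with the matching turned round and 9.4% in the central 500 bp. The difference in SOX core share, 1.26 percentage points, was 0.621 with a 1 bp overlap, 1.91 with reciprocal overlap, 1.67 beyond 5 kb and with the matching turned round, 0.963 with a CpG ratio below 0.75, 2.05 with predicted transcripts, and 1.79 in 200 bp and at the centre of the shared bases. It turned to -0.53 with AACAAT, and was -0.24 without replicate 2 and 1.02 without replicate 1. Members that overlapped ChIP-nexus numbered 1 at the higher score, beyond 5 kb, with a CpG ratio below 0.4, with predicted transcripts and with the matching turned round, and 1 to 2 with one replicate left out. Repeated words were in 21.8% with a 1 bp overlap and in 38.5% at the higher score. The cause was not tested in any case. Alternatives for ChIP-nexus and repeated words, and those without the Sfi1 members, without members of many hosts and without members over 25% masked, were chosen after seeing the data. The other settings moved medians and differences by less than the SD between the lists started from replicate 1 and from replicate 2. They moved counts by at most 1.5 times and the repeated-word share within its binomial interval. That SD is of 2 values, so medians and differences with the matching turned round exceed it by construction. The binomial interval treats members as independent. Both limits serve only to sort the settings. No paired analysis was possible because the results come from no test. With 2 replicates and lists cut at a score, depth limits what a missing peak means.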
